A study of Mus musculus with 6 samples.

Results

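Oligodendrocyte precursor cells (OPC) of the lumbar spinal cord were examined in nuclei from mice that all carried the SOD1G93A transgene, a mutant form of superoxide dismutase 1 used to model amyotrophic lateral sclerosis. Nuclei were taken as OPC where at least 3 of Pdgfra, Cspg4, Tnr, Vcan, Lhfpl3 and C1ql1 had a UMI (unique molecular identifier, the count of 1 captured RNA molecule). Such nuclei also had to have no UMI of the fibroblast gene Dcn, at most 1 UMI of the myelin genes Mog and Mag together and at most 1 UMI of the neuronal genes Snap25 and Rbfox3 together. The rule took 825 of 42628 nuclei that had at least 500 UMIs and under 5% of UMIs from mitochondrial genes. The groups were SOD1G93A/PHD1+/+ and SOD1G93A/PHD1-/- mice of strain C57BL/6, 110 days old, with 3 libraries each. PHD1 is the oxygen-sensing prolyl hydroxylase encoded by Egln2, and the study asked what its loss does in this disease model. No mouse without the transgene was analysed here, so every level below belongs to SOD1G93A cord, and the labels give neither sex nor the allele by which PHD1 was lost. The labels speak of littermate pairs and of frozen tissue, without tying a replicate number to a pair.

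OPC are the dividing glial cells from which oligodendrocytes form. They depend on platelet-derived growth factor, which they sense through the receptor Pdgfra, and they carry the chondroitin sulphate proteoglycan NG2 (Cspg4). When an OPC commits to differentiation it passes through a short stage in which Gpr17, Bmp4 and Enpp6 are made and Pdgfra is shut off, and it later turns on the myelin genes. In mice with mutant SOD1 the turnover of oligodendrocytes in the spinal cord is known to be raised.

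The 6 libraries held 151, 178 and 92 OPC nuclei in PHD1+/+ replicates 1 to 3 and 144, 141 and 119 in PHD1-/- replicates 1 to 3. At least 3 marker genes were detected in 1901 nuclei, of which the Snap25 and Rbfox3 limit removed 955, the Mog and Mag limit 258 and Dcn 92, with 195 nuclei removed by more than 1 of these. The OPC nuclei gave 1923634 UMIs, with medians of 1266, 2691 and 2472 UMIs per nucleus in PHD1+/+ and 1220, 2529 and 3007 in PHD1-/-. Replicate 1 of both groups stood apart from the other 4 libraries: it was shallower, and its OPC nuclei held more UMIs of Malat1, Meg3 and Snhg11, RNAs that stay largely in nuclei or are abundant in neurons. Meg3 stood at 3170 CPM (a gene's UMIs summed over the OPC nuclei of a library, relative to all their UMIs) in the mean of both replicate 1 libraries and at 566 in the mean of the other 4. These same 2 libraries shared 86 cell barcodes, against 0 to 14 in every other pair. The 3 main shares, the count of genes that passed and the list medians are therefore also given over replicates 2 and 3.

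Egln2, the gene labelled as deleted, lies at chr7:27158658-27166802 (minus strand, GRCm38, protein coding). In OPC nuclei it had 9, 6 and 5 UMIs in PHD1+/+ and 1, 4 and 1 UMIs in PHD1-/-. These were 41.3, 12.1 and 20.2 CPM against 5.23, 10.4 and 2.60 CPM, so that every PHD1-/- library was below every PHD1+/+ library. The pooled level was 20.8 CPM in PHD1+/+ (95% exact Poisson interval 12.7 to 32.1, counting error only) and 6.24 CPM in PHD1-/- (2.29 to 13.6). The means were 24.5 ± 15.1 and 6.07 ± 3.97 CPM (SD, n = 3; exact permutation p = 0.10, 2-sided, the smallest that 3 against 3 libraries can give). Mature oligodendrocytes, taken as nuclei with at least 2 UMIs of Mog and Mag and under 3 of the OPC markers, showed the same order, at 24.99 ± 5.80 and 13.4 ± 1.42 CPM. Whether the counted 3′ ends of Egln2 lie inside the deleted part was not given in the sources used here.

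The 6 genes of the rule had chosen the nuclei, and their levels are given as a description only. Lhfpl3, a tetraspan membrane protein of the lineage, stood at 5681 ± 565 CPM in OPC nuclei and at 539 ± 59.3 CPM in all other nuclei (SD over 6 libraries). The extracellular matrix glycoprotein gene Tnr had 3499 ± 957 against 213 ± 56.7 CPM. Versican (Vcan), a large proteoglycan, had 1862 ± 610 against 27.3 ± 6.15 CPM. Pdgfra had 882 ± 311 against 10.9 ± 2.24 CPM, Cspg4 had 363 ± 68.9 against 10.7 ± 4.26 CPM, and the secreted C1q-like protein gene C1ql1 had 227 ± 66.7 against 7.78 ± 2.96 CPM. By library, Pdgfra was at 381, 1072 and 1197 CPM in PHD1+/+ and at 627, 996 and 1019 CPM in PHD1-/-. Both replicate 1 libraries were the lowest, and the genotypes overlapped. Between 39.7% and 84.8% of the OPC nuclei of a library had a Pdgfra UMI.

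**Figure D1:**
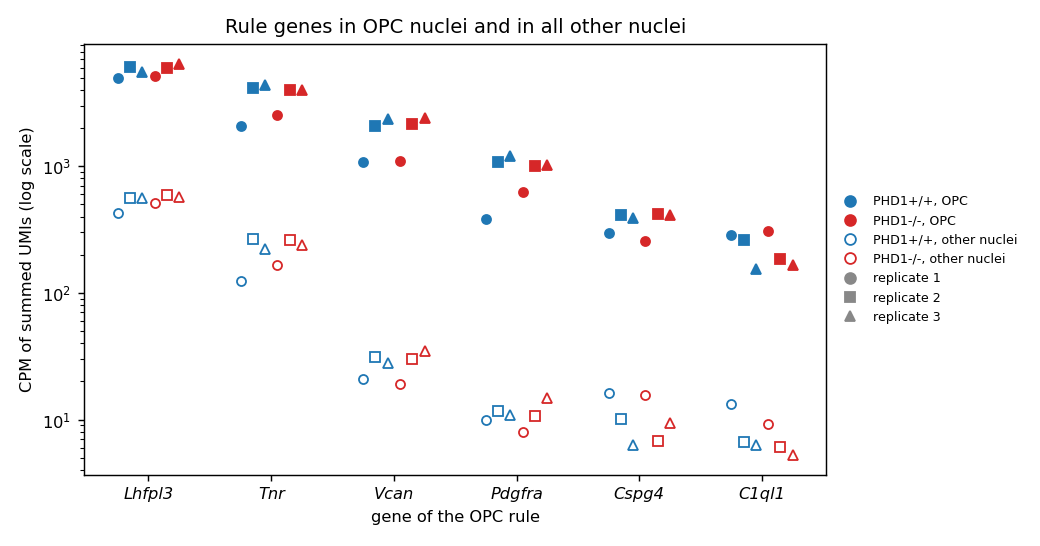
Level of each rule gene in CPM (log axis) by library, with filled symbols for OPC nuclei and open symbols for all other nuclei. Every filled symbol lies above every open symbol of its gene, and the replicate 1 libraries (circles) lie lowest for Pdgfra, Tnr and Vcan.

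The nuclei just inside and just outside the limit of 3 markers differed in genes that the rule did not read. Among nuclei that met every other limit, 584 had 2 markers, 182 had 3, 210 had 4, 295 had 5 and 138 had all 6. Olig1, a transcription factor of the oligodendrocyte lineage, stood at 23.0 CPM with 2 markers and at 222.5 CPM with 3, and reached 455.1 CPM with 6. Sox6, which holds precursors in the undifferentiated state, went from 261 CPM with 2 markers to 1481 CPM with 3 and 1869 CPM with 6. The neuronal vesicle gene Syt1 ran the other way, from 1077 CPM with 2 markers to 293.8 CPM with 3 and 75.0 CPM with 6, so that nuclei just outside the limit carried more neuronal RNA. The nuclei with exactly 3 markers were also the richest in Enpp6, at 268 CPM against 92.7, 14.5 and 7.26 CPM with 4, 5 and 6 markers, and in Bmp4, at 143 CPM against 55.1, 11.8 and 0 CPM. The lower end of the rule thus held nuclei with more RNA of committed-stage genes. It also held a larger part of the shallow replicate 1 libraries: 65 of 151 and 54 of 144 nuclei had 3 markers in replicate 1 of the groups, and 9 to 24 nuclei had 3 in each of the other libraries.

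**Figure D2:**
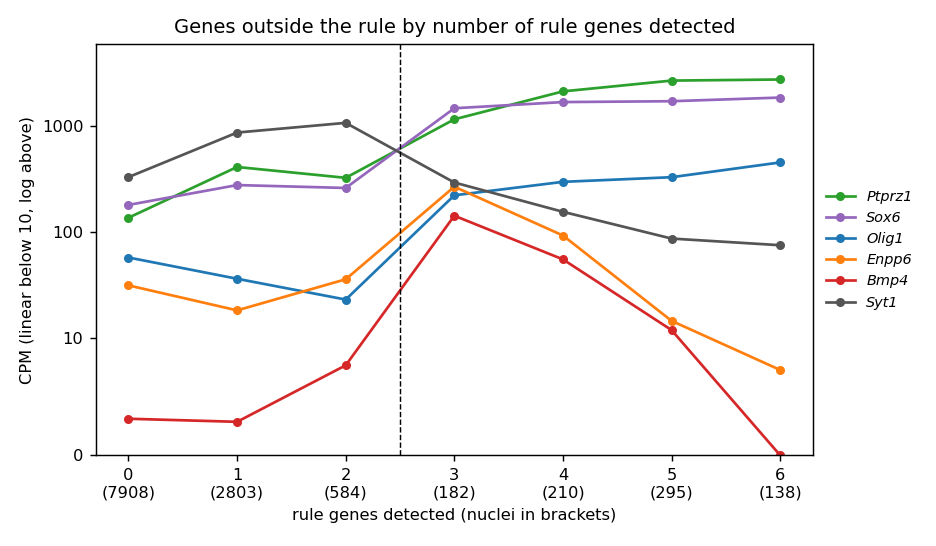
Level in CPM of 6 genes outside the rule against the number of rule genes detected, over nuclei that met the other limits, with the number of nuclei in brackets and a dashed line at the rule's limit. Sox6 and Olig1 lie higher to the right of the line, Syt1 falls from 1077 to 75.0 CPM, and Enpp6 and Bmp4 are highest in the 182 nuclei with 3 markers.

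Among genes at 100 CPM or more in OPC nuclei, 67 of 2011 were over 5 times the level of all other nuclei in every library, and 61 of these were not part of the rule. Ordered by the smallest ratio over the 6 libraries, the leading genes outside the rule were Mybpc1, Neu4, Susd5, Gpr17, Gm38505, Itga9, Sema3d, Megf11, Xylt1, Ppfibp1, Emid1 and Sox6. Mybpc1, a myosin-binding protein best known from muscle, had 207, 398 and 641 CPM in PHD1+/+ and 193, 548.6 and 600.2 CPM in PHD1-/- OPC nuclei, and 4.13 ± 1.51 CPM in other nuclei. Its smallest ratio was 67.6 and its largest 136. Neu4, a sialidase of precursors and new oligodendrocytes, had 344 ± 79.6 against 4.92 ± 1.71 CPM, with 432, 255 and 290 CPM in PHD1+/+ and 449.5, 299 and 335 CPM in PHD1-/-. No test was made, since the nuclei had been chosen by their expression.

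The transcription factors matched the lineage of the label. Olig1 was at 318 ± 51.5 CPM in OPC nuclei, 125 ± 22.8 in mature oligodendrocytes, 56.6 ± 23.1 in astrocytes and 10.4 ± 4.49 in neurons. Olig2, its partner, was at 152 ± 34.8, 36.5 ± 12.8, 20.9 ± 8.91 and 2.87 ± 0.859 CPM in the same order. Sox10, which all oligodendroglia share, was at 413 ± 170 CPM in OPC and 329 ± 140 CPM in mature oligodendrocytes, within each other's spread, and at 8.58 ± 8.90 CPM in neurons. Sox6 separated OPC from mature oligodendrocytes, with 1619 ± 433 against 36.4 ± 20.9 CPM, but was also present in astrocytes at 728 ± 268 CPM. The related gene Sox5 behaved alike, at 966 ± 154, 27.6 ± 19.8 and 483 ± 151 CPM in OPC, mature oligodendrocytes and astrocytes. Prrx1 was shared with astrocytes, at 128 ± 23.9 and 108 ± 35.1 CPM. Myrf, the driver of myelin gene expression, was at 10.9 ± 6.59 CPM in OPC and 199 ± 34.1 CPM in mature oligodendrocytes.

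Genes of the pericellular matrix were a second shared feature that the rule read only in part. Xylt1, which starts the chondroitin sulphate chain on a core protein, was at 1700 ± 373 CPM in OPC, 143 ± 50.5 in astrocytes, 19.5 ± 5.71 in mature oligodendrocytes and 72.2 ± 18.8 in neurons. Chst11, which sulphates that chain, was at 599 ± 132, 119 ± 42.5, 10.4 ± 6.86 and 46.7 ± 6.33 CPM. Microglia held both at a middle level, with 227 ± 80.7 CPM of Xylt1 and 248 ± 71.2 CPM of Chst11. The core protein genes split: Ptprz1 (2217 ± 454 CPM), a receptor phosphatase, and Cspg5 (1037 ± 250 CPM) were higher in OPC than in astrocytes (922 ± 310 and 83.0 ± 29.1 CPM), while brevican (Bcan) did not differ beyond its spread (300.1 ± 52.4 and 299 ± 43.6 CPM). The membrane metalloproteinase gene Mmp16 was at 1560 ± 349 CPM in OPC and 341 ± 55.9 CPM in neurons. The matrilin gene Matn4 was at 378 ± 52.9 CPM in OPC and 89.8 ± 22.8 CPM in mature oligodendrocytes.

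OPC receive synapses from neurons, and genes for transmitter receptors and channels were present. The AMPA receptor subunit Gria4 was at 2160 ± 365 CPM in OPC and 1426 ± 179 CPM in neurons, and the voltage-gated potassium channel Kcnd2 was at 3268 ± 699 and 2233 ± 451 CPM. The AMPA receptor auxiliary subunit Cacng4 was at 625 ± 141 CPM in OPC, against 43.0 ± 8.87 CPM in neurons and 16.9 ± 8.53 CPM in astrocytes. Kcnip3, a calcium-binding partner of such channels, was at 736 ± 116 CPM, with 32.3 ± 5.03 CPM in neurons. Its paralog Kcnip4 went the other way, at 384 CPM in OPC and 5013 CPM in neurons. Among adhesion genes, Pcdh15 was at 2713 ± 434 CPM in OPC, 1156 ± 146 in neurons and 55.7 ± 51.7 in astrocytes, and Megf11 was at 701 ± 98.2, 29.8 ± 2.60 and 5.59 ± 4.87 CPM. Among guidance genes, the secreted semaphorin Sema3d was at 613 ± 149 CPM in OPC and at 2.50 to 16.9 CPM in the mean of microglia, astrocytes, neurons and mature oligodendrocytes. Netrin 1 (Ntn1) was at 244 ± 90.8 CPM in OPC and 39.4 ± 24.2 CPM in astrocytes.

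Growth factor receptors other than Pdgfra were less particular to OPC. The neuregulin receptor Erbb4 was at 2423 ± 705 CPM in OPC, 1584 ± 497 in astrocytes and 1194 ± 229 in mature oligodendrocytes, with overlapping spreads between OPC and astrocytes. Fgfr2 was lower in OPC (339 ± 44.3 CPM) than in mature oligodendrocytes (1299 ± 241 CPM). Fgfr3 and Egfr were mainly astrocytic, at 374 ± 142 and 221 ± 98.7 CPM there against 31.9 ± 19.6 and 8.79 ± 4.89 CPM in OPC. The ETS factors Etv1 and Etv5, which respond to growth factor signalling, stood at 207 ± 61.0 and 196 ± 37.6 CPM in OPC, and at 35.4 ± 8.49 and 56.0 ± 19.1 CPM in astrocytes. The endothelin receptor Ednrb was at 97.4 ± 28.4 CPM in OPC, below astrocytes at 264 ± 45.4 CPM.

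OPC nuclei were not uniform. Variation was read as the Fano factor (variance over mean of UMIs) after each nucleus was thinned to 1000 UMIs, for genes with a mean of at least 0.05 UMI; the median gene had a Fano factor of 0.956 to 1.04 in the 6 libraries. A gene is named where it was among the 30 highest in at least 4 libraries. St18, a zinc finger gene of differentiating oligodendrocytes, had Fano factors of 3.30, 4.14 and 5.10 in PHD1+/+ and 2.03, 3.30 and 3.95 in PHD1-/-. The kinase gene Fyn, which acts early in myelination, had 3.87, 3.26 and 2.40 in PHD1+/+ and 6.97, 3.95 and 2.00 in PHD1-/-. Bcas1, an early myelination gene, had a median of 2.32. Frmd4a, Tmem108, 9530059O14Rik, 9630013A20Rik, Nkain2 and Mgat4c were also named by this rule, as were Malat1, Snhg11 and Kcnip4, of which Snhg11 and Kcnip4 are abundant in neurons.

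Several of these genes followed the committed stage. When the 825 nuclei were split by detection of Gpr17 and Bmp4, a split chosen after the data had been seen, 561 (68.0%) had neither, 226 (27.4%) had Gpr17 without Bmp4 and 38 (4.61%) had Bmp4. The nuclei were not thinned, and detection ran with depth. Neither gene was found in 82.1% and 82.6% of OPC nuclei in the shallow replicate 1 libraries, and in 55.3% to 64.7% in the other 4 libraries. The pooled percentages are therefore not the sizes of cell states. Of the 825 nuclei, 172 also met a gate for newly formed oligodendrocytes, so the OPC rule overlapped with that stage. With OPC taken out, that gate held 29 nuclei, and OPC are not compared with them here. Bmp4, a bone morphogenetic protein made by committed precursors, lies at chr14:46383520-46390669 (minus strand, GRCm38). In the 38 Bmp4 nuclei Pdgfra had 1 UMI in 116124, or 8.6 CPM, against 980 CPM in the 561 nuclei with neither gene. Pdgfra was lower in the Bmp4 nuclei of each of the 6 libraries, and so were Cspg4 (138 against 374 CPM), Ptprz1 (611 against 2325 CPM), Lhfpl3 (2609 against 6141 CPM) and Pcdh15 (482 against 2733 CPM). Not every rule gene was lower: Tnr was at 8500 against 2966 CPM and higher in 6 of 6 libraries, and Vcan was at 2024 against 1902 CPM and higher in 4. Sox6 was also higher in 6 of 6 libraries, at 3152 against 1473 CPM. The nuclei were taken by Bmp4 detection alone within the rule, which asks for 3 markers, so nuclei that had lost more of them are not among the 38.

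Beside Tnr and Sox6, several genes known from early differentiation were higher in the Bmp4 nuclei. Against nuclei with neither gene, Bcas1 was at 4831 and 330 CPM, Fyn at 4814 and 289 CPM, and St18 at 2911 and 67.4 CPM, each higher in 6 of 6 libraries. The calcium release channel gene Itpr2 and the Wnt effector gene Tcf7l2, both marks of this stage, were at 1430 against 278 CPM and 637 against 180 CPM. Enpp6 was at 766 against 20.8 CPM, higher in 5 libraries. The largest ratios among other genes were those of the long noncoding gene 9530059O14Rik (47.2), St18 (43.2), Rhbdl2 (37.3), Enpp6 (36.9) and Kif19a (25.9). The late myelin gene Mobp was not raised, with 1 UMI (8.6 CPM) in the Bmp4 nuclei and 56.6 CPM in nuclei with neither gene. Of genes on the neuron marker list, Rbfox1 was lower in the Bmp4 nuclei, at 129 against 2055 CPM, and so was Meg3, at 232.5 against 1398 CPM. The neuron-abundant gene Kcnip4 was not lower in the pooled values, at 422 against 421 CPM, and was higher in 1 of 6 libraries. Nuclei with Gpr17 but no Bmp4 kept Pdgfra, at 1039 CPM in the pooled values and 193 to 1238 CPM by library. Nuclei with neither gene had 439 to 1302 CPM by library, and Pdgfra was higher with Gpr17 in only 1 of 6 libraries. Bcas1 (672 CPM), Fyn (608 CPM) and St18 (238 CPM) in the Gpr17 nuclei lay between the other states in the pooled values. These genes were above nuclei with neither gene in 6 of 6 libraries.

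**Figure D3:**
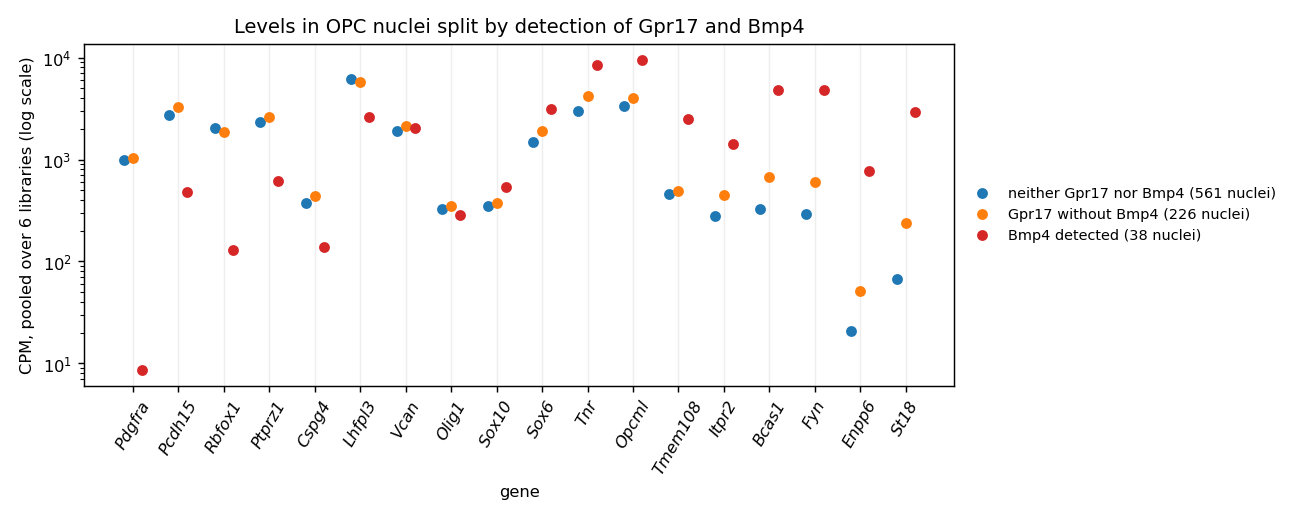
Levels in CPM (log axis, pooled over 6 libraries) of 18 genes in OPC nuclei with neither Gpr17 nor Bmp4, with Gpr17 only, and with Bmp4. Pdgfra is at 8.6 CPM in the Bmp4 nuclei against 980 CPM, while Bcas1, Fyn and St18 lie at 4831, 4814 and 2911 CPM there.

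Genes of dividing cells were found in few OPC nuclei. Top2a, the topoisomerase of dividing cells, had 117 UMIs in OPC nuclei, of which 86 lay in 13 nuclei with 3 or more. Of 825 OPC nuclei, 26 (3.15%) had a UMI of at least 3 of 13 mitotic genes, a limit chosen after the data had been seen. The same count was 1 of 1496 astrocytes (0.0668%), 6 of 11355 mature oligodendrocytes (0.0528%), 23 of 11980 neurons (0.192%) and 40 of 2359 microglia (1.70%), at median depths of 1785, 1543, 5989 and 1232 UMIs. Neither Top2a nor Mki67 had a UMI in the 38 Bmp4 nuclei, in which 3 UMIs would be 25.8 CPM. In nuclei with neither Gpr17 nor Bmp4 the level was 79.9 CPM for Top2a and 24.1 CPM for Mki67. Since Top2a had a UMI in only 36 of 825 OPC nuclei, 38 nuclei are too few to read its absence, or that of Mki67, as a difference.

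The share of OPC among all nuclei did not differ between the genotypes beyond the spread of the libraries. The OPC share of nuclei was 1.65%, 2.22% and 1.72% in PHD1+/+ and 2.19%, 1.91% and 1.95% in PHD1-/-, so that the groups overlapped. The means were 1.86% ± 0.312 and 2.01% ± 0.151 (SD, n = 3), a difference of 0.151 percentage points (exact permutation p = 0.60, 2-sided). The difference changed sign to -0.0416 points over replicates 2 and 3 and to -0.0518 points when nuclei of at least 1000 UMIs were thinned to 1000 before the rule was applied.

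The share of OPC nuclei with committed-stage genes did not separate the genotypes either. With nuclei thinned to 1000 UMIs, which left out 80 of 825, a UMI of at least 2 of 12 such genes was found in 47.7%, 54.0% and 55.4% of PHD1+/+ and in 47.8%, 57.6% and 43.2% of PHD1-/- OPC nuclei. The means were 52.4% ± 4.12 and 49.5% ± 7.32 (SD, n = 3), a difference of -2.85 points (exact permutation p = 0.70). It rested on PHD1-/- replicate 3, without which the share of OPC nuclei with committed-precursor genes differed by 0.307 points. Over replicates 2 and 3 the difference was -4.34 points. Without thinning the means were 77.3% and 77.9%. The same share was 11% to 17.8% in astrocytes and 2.36% to 3.49% in neurons, below every OPC library, and 24.7% to 36.1% in mature oligodendrocytes. The list genes found most often in the thinned OPC nuclei were Bcas1 (33.0%), Fyn (31.4%), Neu4 (29.1%) and Itpr2 (26.7%), while Enpp6 was found in 3.62% and Bmp4 in 2.95%. Neu4 was also at 292 CPM in nuclei with neither Gpr17 nor Bmp4. The share is thus not read as the part of OPC that had committed. In nuclei that were not thinned, Bmp4 itself was detected in 4.64%, 6.74% and 4.35% of PHD1+/+ and in 2.78%, 4.96% and 3.36% of PHD1-/- OPC nuclei. Each PHD1-/- library was below the PHD1+/+ library of its number, though the groups overlapped and the share was 4 to 12 nuclei per library. The difference was not tested.

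The share of OPC nuclei with cell cycle genes did not separate the genotypes beyond the spread of the libraries. After thinning, a UMI of at least 1 of 26 such genes was found in 26.0% ± 2.16 of PHD1+/+ and 27.7% ± 3.42 of PHD1-/- OPC nuclei (SD, n = 3), a difference of 1.70 points (exact permutation p = 0.40), and 2.52 points over replicates 2 and 3. The groups overlapped, though the PHD1-/- library was the higher in each of the 3 replicate numbers. Without thinning the means were 41.0% and 46.1%. The same share was 32.5% to 46.6% in mature oligodendrocytes, above every OPC library, so it is read as no measure of dividing OPC. Among the thinned nuclei the list gene Anln was found in 33.8% of mature oligodendrocytes and 2.28% of OPC, and Top2a in 0.0572% and 3.49%. At least 3 mitotic genes were found in 1, 6 and 2 OPC nuclei of PHD1+/+ and in 3, 10 and 4 of PHD1-/-, or 2.07% ± 1.36 and 4.18% ± 2.60 (SD, n = 3; exact permutation p = 0.50). The groups overlapped, and here too the PHD1-/- library was the higher in each replicate number. The summed level of the 26 cell cycle genes was 289, 626 and 581 CPM in PHD1+/+ and 523, 1069 and 712 CPM in PHD1-/-, with overlap and the same order within each number. With 3 pairs the smallest exact sign-flip p is 0.25.

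**Figure D4:**
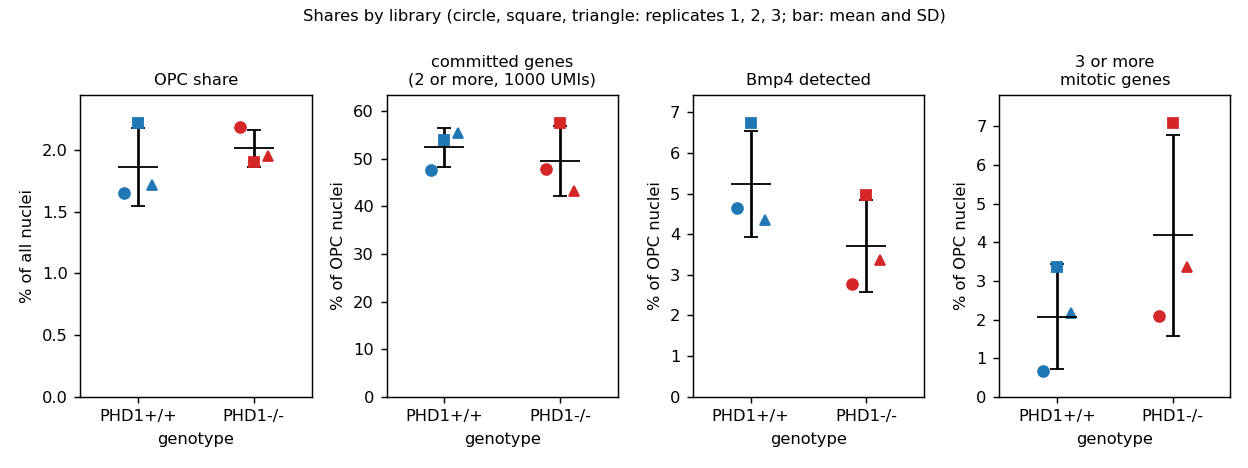
Shares in percent by library and genotype, with mean and SD, for OPC among all nuclei and, among OPC nuclei, for at least 2 committed-stage genes after thinning, for a Bmp4 UMI and for at least 3 mitotic genes. The PHD1+/+ and PHD1-/- libraries overlap in each panel, with the OPC share between 1.65% and 2.22%.

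No gene passed the test between the genotypes in OPC nuclei. UMIs were summed over the OPC nuclei of each library and 6115 genes were tested with edgeR (quasi-likelihood test, Benjamini-Hochberg adjustment). The count at adjusted p under 0.05 was 0 (0%), and 68 genes (1.11%) had an unadjusted p under 0.05, below the 5% that a test with no differences gives. Of these, 33 (0.54%) were higher and 35 (0.572%) lower in PHD1-/-. In DESeq2 the adjusted test likewise left 0 genes, and 12 were under 0.05 before adjustment. The libraries of the genotypes did not overlap for 363 genes (5.94%), 185 of them higher (3.03%) and 178 lower (2.91%) in PHD1-/-. Log2 fold changes were negative for 53.6% of genes, with a median of -0.02. The OPC of a library came from 92 to 178 nuclei, which limits what could be detected. Over replicates 2 and 3 alone 0 genes passed.

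With the replicate number as a block in the edgeR model, 1 gene of 6115 (0.0164%) passed. This was Kcnip4, the neuron-abundant potassium channel partner, at 432, 195 and 125 CPM in PHD1+/+ and 998, 281 and 273 CPM in PHD1-/- OPC nuclei. Each PHD1-/- library was above the PHD1+/+ library of its number, while the groups overlapped. The log2 fold change was 0.91 (SE 0.16, edgeR adjusted p = 0.0188) with the block and 1.00 (SE 0.60, adjusted p = 0.999) without it, and 0.10 without the block and without PHD1-/- replicate 1. Kcnip4 had a UMI in 16.3% to 19.9% of OPC nuclei, and 1 nucleus of PHD1-/- replicate 1 held 57 of that library's 191 UMIs. Neurons held 3900 to 6128 CPM of Kcnip4, and the part of neuronal RNA in this result was not tested. Neuron markers summed to 3515 to 7353 CPM in PHD1+/+ and 3271 to 7763 CPM in PHD1-/- OPC nuclei, with all 16 detected. Rbfox1 alone gave 1525 to 2367 CPM of this in PHD1+/+ and 1626 to 2019 CPM in PHD1-/-. It was lowest in replicate 1 of each group, where Meg3 was highest, and the source of its RNA was not tested.

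Since no gene passed, the genes with the smallest unadjusted p among those whose groups did not overlap, at a mean of 20 CPM or more, are described as values. Levels here and in the lists that follow are CPM on edgeR's TMM scale, and every gene named had an edgeR adjusted p of 0.999. Tkt, the transketolase of the pentose phosphate pathway, was at 142, 99.3 and 111 CPM in PHD1+/+ and 18.3, 55.9 and 57.4 CPM in PHD1-/- (log2 fold change -1.30, SE 0.38). Adipor1, an adiponectin receptor, was at 62.7, 43.2 and 44.5 against 12.2, 19.6 and 20.1 CPM (-1.40, SE 0.42). In both genes the widest gap was that of replicate 1. Tmem33, a membrane protein of the endoplasmic reticulum, was at 74.1, 82.0 and 93.4 against 36.6, 39.2 and 45.9 CPM (-1.01, SE 0.31). Erc1, a scaffold of secretory sites, was at 142, 136 and 151 against 91.4, 78.3 and 86.1 CPM (-0.75, SE 0.25). The genotypes were apart in each of them, as the rule for naming them asks. The low-count filter can also be met by the 3 libraries of 1 group. A gene low in the other group could therefore enter the test through its higher group alone, here and among the genes that were higher. Tmx1, D930016D06Rik, G0s2 and Sec22b were also lower, with log2 fold changes of -1.11, -0.94, -1.14 and -1.28.

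In the other direction, Ift140, a subunit of the transport complex of cilia, was at 28.5, 25.9 and 35.6 CPM in PHD1+/+ and 85.3, 69.9 and 51.7 CPM in PHD1-/- (1.18, SE 0.37). Plekhm3 was at 17.1, 47.5 and 48.9 against 85.3, 78.3 and 97.6 CPM (1.12, SE 0.38). Rel, an NF-kappa-B subunit, was at 28.5, 28.1 and 22.2 against 48.8, 58.7 and 45.9 CPM (0.95, SE 0.36). In Ift140 and Plekhm3 replicate 1 had the widest gap. Nusap1, a spindle protein, was at 5.70, 23.8 and 17.8 against 61.0, 39.2 and 43.1 CPM (1.35, SE 0.49). These were 1, 11 and 4 UMIs against 10, 14 and 15 UMIs, so Nusap1 may have passed the low-count filter through PHD1-/- alone. Rmnd1, 4930570G19Rik, 1700012D14Rik and Shoc2 were also higher, with log2 fold changes of 1.09, 1.12, 0.80 and 0.75. None of the 16 genes passed in any of the 221 alternative values computed, the smallest edgeR or DESeq2 adjusted p being 0.517.

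The 6 rule genes chose the nuclei in both genotypes alike, so their fold changes are a description and not a test. Pdgfra had a log2 fold change of -0.01 (SE 0.35), Cspg4 of -0.04 (SE 0.23), Tnr of -0.02 (SE 0.28), Vcan of 0.02 (SE 0.32), Lhfpl3 of 0.05 (SE 0.19) and C1ql1 of -0.15 (SE 0.34). Of 30 lineage transcription factors 22 could be tested, 10 were lower, none passed and their median was 0.02, beside -0.02 for all genes. Sox6 was at 1265, 1958 and 2224 CPM in PHD1+/+ and 1304, 2064 and 2007 CPM in PHD1-/- (-0.02, SE 0.27). Its values ran with the replicate number and not with the genotype. Etv5 was the 1 of 22 tested factors whose groups did not overlap, a share no larger than the 5.94% of all genes.

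The growth factor list (16 of 27 tested, 5 lower, median 0.03), the matrix list (20 of 26, 9 lower, 0.03), the ion channel and receptor list (30 of 32, 17 lower, -0.03), the adhesion list (30 of 30, 16 lower, -0.01), the guidance list (18 of 23, 11 lower, -0.02) and the list of differentiation inhibitors (12 of 23, 7 lower, -0.05) also held no gene past the test. Erbb4 was at 1909, 2602 and 3519 CPM in PHD1+/+ and 1896, 2908 and 3379 CPM in PHD1-/- (0.03, SE 0.29). Ptprz1 was at 1847, 2574 and 2540 against 2182, 2900 and 2813 CPM (0.18, SE 0.22). Both genes overlapped between the genotypes. Across these 6 lists, Galntl6 of the adhesion list was the only gene at an unadjusted p under 0.05 (1.09, SE 0.44), where 1.11% of all genes were. In PHD1-/- replicate 3 a single nucleus held 53 of the 72 Galntl6 UMIs.

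No gene of differentiation passed. Of 12 committed-stage genes 11 were tested, 7 had a negative fold change and the median was -0.17, where 53.6% of all genes were negative. Bcas1 was at 650 CPM in PHD1+/+ replicate 1, 844 in replicate 2 and 983 in replicate 3, against 603, 789 and 741 CPM in PHD1-/- (-0.21, SE 0.23), and Fyn was at 718, 786 and 859 against 652, 777 and 594 CPM (-0.22, SE 0.21). Each PHD1-/- library was below the PHD1+/+ library of its number for both genes, and the groups overlapped. Of 26 myelin genes 20 were tested and 19 were negative, with a median of -0.24, and the medians within replicates 1, 2 and 3 were -0.27, -0.08 and -0.46. St18 was at 382, 352 and 414 CPM in PHD1+/+ and 244, 249 and 319 CPM in PHD1-/-, with no overlap (-0.49, SE 0.21), and had an unadjusted p under 0.05. It had a UMI in 6.72% to 15.2% of the OPC nuclei of a library. Mature oligodendrocytes held St18 at 2815 ± 716 CPM on the unscaled CPM, against 290 ± 61.6 CPM in OPC, and the part of their RNA in these values was not tested.

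**Figure D5:**
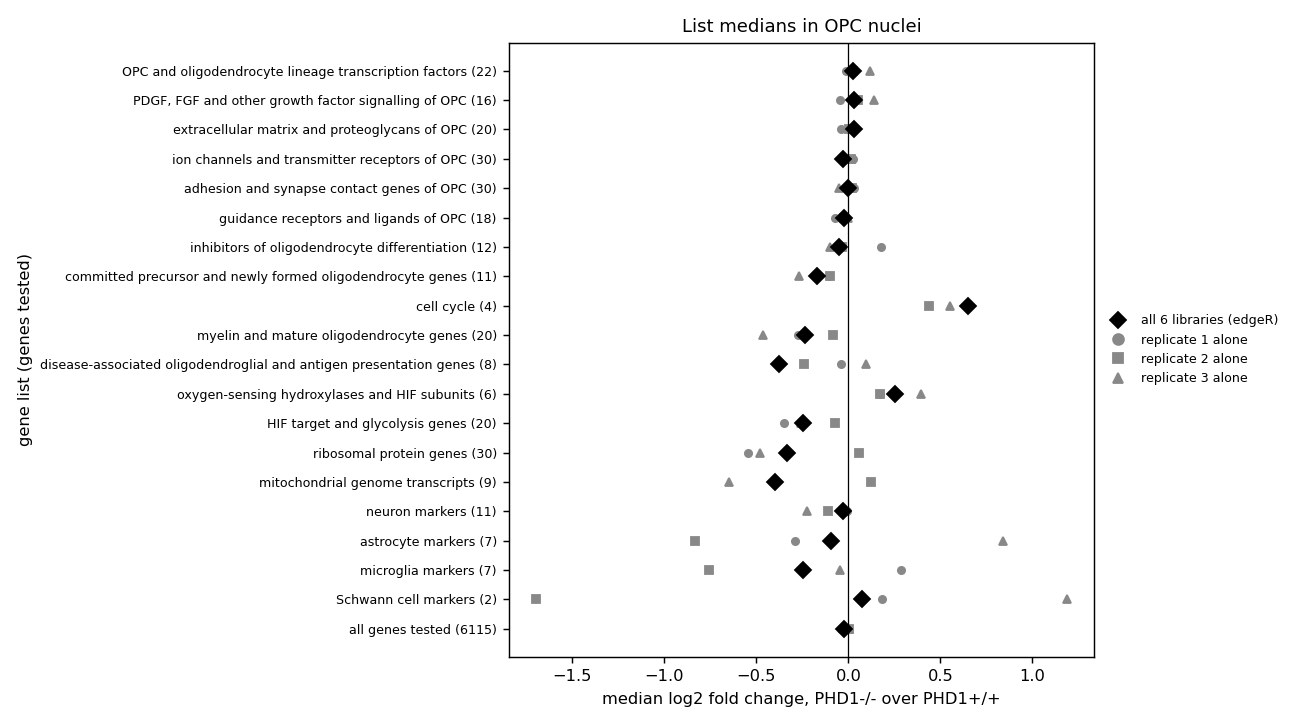
Median log2 fold change of each gene list in OPC nuclei, with the value over all 6 libraries (black diamonds) and within each replicate number (grey symbols), and the number of genes tested in brackets. Over all libraries the 7 lists of OPC identity and its inhibitors lie between -0.05 and 0.03. The ribosomal, mitochondrial, astrocyte, microglia and Schwann cell lists spread widely between replicates, the Schwann cell list (2 genes tested) the most.

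Of 26 cell cycle genes only 4 passed the filter on low counts, and all 4 were higher in PHD1-/- (median 0.65), so that this small number describes those genes alone. A gene can pass that filter by being high in 1 group only. The shared direction and the median of these 4 genes are thus not independent of the filter, and neither is read as a result. Top2a was at 28.5, 32.4 and 57.8 CPM in PHD1+/+ and 48.8, 139.8 and 74.6 CPM in PHD1-/- (1.21, SE 0.45), with an unadjusted p under 0.05. The groups overlapped, and 50 of the 84 PHD1-/- UMIs came from replicate 2. Atad2, a chromatin protein of dividing cells, was at 51.3, 51.8 and 13.3 against 85.3, 55.9 and 77.5 CPM, with no overlap (0.84, SE 0.45).

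No gene of oxygen sensing passed the test, and Egln2 was not among the genes tested. Of 11 hydroxylase and HIF subunit genes 6 were tested and 5 had a positive fold change, with a median of 0.26, and medians of 0.17, 0.17 and 0.40 within replicates 1, 2 and 3. Arnt2, a partner subunit of HIF, was at 74.1, 155 and 165 CPM in PHD1+/+ and 122, 235 and 198 CPM in PHD1-/- (0.49, SE 0.34), higher in each replicate number, with overlap of the groups. Egln1, the closely related hydroxylase that controls HIF (hypoxia-inducible factor) in most cells, was at 38.4 ± 11.1 CPM in PHD1+/+ and 36.4 ± 4.40 CPM in PHD1-/- OPC nuclei on the unscaled CPM. Egln3 had 4 UMIs in each genotype. Of the HIF subunits, Hif1a was at 85.5, 86.4 and 84.5 against 61.0, 106 and 129 CPM (0.25, SE 0.32) and Epas1, which encodes HIF-2 alpha, at 68.4, 77.7 and 71.2 against 85.3, 173 and 66.0 CPM (0.59, SE 0.39). For Epas1 the difference lay in PHD1-/- replicate 2. Of 34 HIF target and glycolysis genes 20 were tested and 13 were lower, with a median of -0.25. Pkm, the last enzyme of glycolysis, was at 342, 158 and 191 against 213, 115 and 135 CPM (-0.58, SE 0.35), and Aldoa at 291, 95 and 142 against 146, 75.5 and 91.9 CPM (-0.74, SE 0.43). Both overlapped between the genotypes. The HIF target median was 0.08 over replicates 2 and 3 with the block. In that fit the medians of the 7 lists of OPC identity and its inhibitors ran from -0.11 to 0.06, and those of the committed-stage, myelin, cell cycle and oxygen-sensing lists were -0.17, -0.21, 0.62 and 0.31. The cell cycle median carries the limit of the low-count filter given above.

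Ribosomal protein genes (30 of 30 tested, 29 lower, median -0.33) and transcripts of the mitochondrial genome (9 of 13 tested, 9 lower, median -0.40) had mostly negative fold changes, as the myelin list did, and none of their genes passed. Within replicates 1, 2 and 3 their medians were -0.55, 0.06 and -0.48 for the ribosomal and -0.41, 0.12 and -0.65 for the mitochondrial list, so that replicate 2 had the opposite sign. Over replicates 2 and 3 with the block they were -0.23 and -0.21. Rpl13 was at 707, 311 and 343 against 500, 333 and 307 CPM (-0.25, SE 0.34). The mitochondrial RNA in nuclei is carried over from cytoplasm. Genes of disease-associated oligodendroglia and antigen presentation (8 of 26 tested, 5 lower, median -0.38) included C4b, the complement gene raised in diseased oligodendroglia, at 120, 140 and 57.8 against 54.9, 89.5 and 66.0 CPM (-0.59, SE 0.38) and the class I chain gene B2m at 91.2, 82.0 and 40.0 against 134, 78.3 and 40.2 CPM (0.16, SE 0.47). Both overlapped.

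RNA of other cells was present in OPC nuclei. Astrocyte markers summed to 932 to 2060 CPM in PHD1+/+ and 894 to 2185 CPM in PHD1-/- OPC nuclei with 10 of 10 detected. The astrocyte gene Aqp4 was at 36.7, 235 and 24.2 CPM in PHD1+/+ and 20.9, 41.6 and 164 CPM in PHD1-/-, uneven within each group. Microglia markers summed to 149 to 455 and 169 to 669 CPM (10 of 10 detected), and Schwann cell markers to 64.5 to 257 and 57.2 to 277.0 CPM (4 of 4). Pericyte markers, relevant because pericyte-like cells can also carry Cspg4, summed to 20.2 to 73.5 and 10.4 to 20.9 CPM, fibroblast markers to 4.03 to 36.7 and 5.20 to 20.9 CPM with Dcn at 0 by the rule, and endothelial markers to 8.05 to 124 and 2.60 to 209 CPM. The first of each pair of ranges is PHD1+/+. Their part in the values above was not tested.

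The effect of genotype was also compared between OPC and mature oligodendrocytes in 1 edgeR model with the library as a block. Of 12555 genes 0 (0%) differed at adjusted p under 0.05 and 276 (2.2%) had an unadjusted p under 0.05. In DESeq2 these numbers were 0 and 98. The genes with the smallest p, each at an edgeR adjusted p of 1, were largely those named above. Sec22b, a protein of vesicle fusion, had a log2 fold change of -1.28 (SE 0.45) in OPC and 0.34 (SE 0.20) in mature oligodendrocytes, a difference of -1.55 (SE 0.44). Adipor1 had -1.40 and 0.04, and Plekhm3 1.12 and 0.00. In these genes the mature oligodendrocyte value lay within 2 standard errors of 0. Kif5c, a motor of axonal and process transport, had 0.52 (SE 0.30) in OPC and -0.31 (SE 0.18) in mature oligodendrocytes, a difference of 0.87 (SE 0.27).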

How the data were processed

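Nuclei of frozen lumbar cord were profiled with the 10x 3′ assay. The authors deposited raw UMI counts per gene and barcode for each library. Per the submitters' processing notes Cell Ranger 5.0.2, Scanpy 1.8.1 and build mm10 were used, while the file headers name Cell Ranger 5.0.1. The deposited barcode and feature files hold text only. Libraries held 5361 to 9155 nuclei at medians of 1363 to 2974 UMIs. The treatment of intronic reads is not stated in the labels or headers. The labels do not tie libraries to separate mice by number, so p-values measure the spread between these libraries.

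From these counts, nuclei with at least 500 UMIs and under 5% mitochondrial UMIs were kept and the OPC rule was applied with Python 3.11.15 and scipy 1.17.1. Members and gene lists were chosen with earlier results of these data known. UMIs were summed per library and tested with edgeR 4.0.16 (TMM, filterByExpr, glmQLFit) in R 4.3.3. The library was the replicate, since nuclei are not. DESeq2 1.42.0, no low-count filter, a replicate block, other limits of the OPC rule, leaving out libraries and removal of doublets were tried. The code was tested on simulated data. Standard errors were taken as the log2 fold change over the root of the F statistic. Percentages were compared with exact permutation tests, and differences between nuclear classes, which expression had defined, were not tested. Intervals cover counting error only.

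Astrocytes, neurons and microglia were gated by at least 3 of 6 or 7 marker genes, or at least 3 UMIs of Snap25 and Rbfox3 for neurons. Doublets were called per library with Scrublet in Scanpy 1.11.5, which marked 268, 148, 167 and 110 nuclei of replicates 2 and 3, 14 OPC among them, and 0 in both replicate 1 libraries, where it had not worked; they were kept in the main analysis. Deviations of same-numbered libraries from their group means correlated at 0.66, 0.28 and 0.43 over 4657 genes, and the numbers were taken to pair the libraries. Replicates 2 and 3 correlated as strongly across numbers (0.30 and 0.45). The correlations therefore set replicate 1 apart but do not show that replicates 2 and 3 pair by number. Named genes were the rule genes and Egln2, the 8 smallest unadjusted p in each direction among genes with groups that did not overlap and a mean of at least 20 CPM, the 4 highest tested members of each list members at an unadjusted p under 0.05, the identity lists for levels, the most variable genes, and the 4 smallest p in each direction for the difference of effects, of which 4 genes are printed. The genes printed from the lists are a part of these. Others were named after their values were seen. Levels are compared between classes of nuclei, not between genes, since CPM is not per length. Positions are from GENCODE M21 on GRCm38. Some genes that these rules name are not reported here.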

Additional observations from a re-analysis of the deposited data

How the results depend on the processing

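Genes changed in OPC nuclei numbered 0 in the main edgeR fit and 1 without the low-count filter (Gm32647, 2, 11 and 4 UMIs in PHD1+/+ against 57, 12 and 13 in PHD1-/-) and 1 with the replicate block (Kcnip4). All other alternatives gave 0, those that left out 1 library or took replicates 2 and 3 included. The difference of effects between OPC and mature oligodendrocytes gave 0 genes, and 3 (Gm32647, Galntl6 and Il1rapl2) without the filter. The replicate block could not be fitted there, because the library block takes it up, and was not run. The difference in the OPC share of nuclei of 0.151 points turned to -0.0769 with nuclei of at least 1000 UMIs, -0.0518 after thinning and -0.0416 over replicates 2 and 3, and ran from 0.0448 to 0.330 when 1 library was left out. The difference in the share of OPC nuclei with committed-precursor genes of -2.85 points turned to 0.526 without thinning and ran from -6.86 to 0.307 when 1 library was left out, with 0.307 without PHD1-/- replicate 3. That in the share of OPC nuclei with cell cycle genes, 1.70 points, was 5.02 without thinning and ran from 0.314 to 3.61 in the same way. Paired by replicate number, the exact sign-flip p was 0.75 for the OPC share, 1.0 for committed-stage and 0.25 for cell cycle genes, the smallest being 0.25, and the replicate block changed no call other than Kcnip4. With at least 3 mitotic genes, chosen after the data had been seen, the cell cycle difference was 2.11 points. Over 106 gene results and 1580 alternative values, 214 changed sign and 1 passed. Genes at an unadjusted p under 0.05 numbered 68 in edgeR, 12 in DESeq2 and 304 with the replicate block. With 92 to 178 nuclei per library, genes under about 20 CPM had few UMIs, and small changes were not detectable at this depth.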
